A study of Mus musculus with 16 samples.

Results

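Mitochondrial ribosomal proteins are the nuclear-encoded proteins of the ribosome inside mitochondria. The members described here are the protein-coding genes of the count table whose mouse symbol is Mrpl or Mrps followed by a number and, for some, a letter. The rule found 78 genes, 49 named for the large subunit (Mrpl) and 29 for the small subunit (Mrps), among 21980 protein-coding rows and 55573 rows in all. Below, large and small subunit genes are so called by symbol unless structure or role is named. They lie on 17 autosomes, with at most 11 on 1 chromosome (chromosome 11) and 0 on X.

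The study sequenced RNA from whole cerebral cortex of mice at about postnatal day 180, in 4 groups of 4 libraries. Aifm1-KI mice carry a deletion of arginine 200 in Aifm1, the gene of apoptosis-inducing factor, and Aifm1-WT mice are their wild-type littermates. Hq-mut mice are harlequin mutants of the stock B6CBACa Aw-J/A-Aifm1Hq/J, in which a proviral insertion in Aifm1 lowers its expression, and Hq-WT mice are the littermates of that stock. All 16 libraries are labelled C57BL/6 and untreated, although the Hq stock has a mixed background, and the labels give neither sex nor pooling.

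The mitochondrial ribosome translates the handful of respiratory chain subunits that mitochondrial DNA still encodes. Its large subunit forms the peptide bond and its small subunit reads the messenger. Both are built from RNA made inside the organelle and from proteins made in the cytosol and imported. Apoptosis-inducing factor is a flavoprotein of the intermembrane space that is needed for normal levels of the respiratory chain and for import of a set of mitochondrial proteins.

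The libraries held 10671580 to 32551594 counted reads. Aifm1 itself was at 21.5 to 23.5 CPM (counts scaled to library size by TMM factors) in Aifm1-WT, 21.7 to 25.8 in Aifm1-KI, 23.1 to 25.8 in Hq-WT and 2.22 to 4.01 in Hq-mut. The Hq-mut libraries lay below all others, and the knock-in, which removes a single residue, had a log2 fold change of 0.08 (edgeR quasi-likelihood test, adjusted p 0.679). A list of 10 excitatory neuron markers had no gene at 0 in any library and a mean log2 CPM of 6.61 to 7.97. Regional markers varied within groups. Means for 10 striatal markers were 5.18, 5.14 and 5.71 in Aifm1-KI 2, Aifm1-KI 4 and Hq-mut 3, and 3.14 to 4.16 in the other libraries; choroid plexus markers summed to 3690 CPM in Aifm1-KI 2 and 6368 CPM in Hq-WT 2, and to 181 to 762 CPM elsewhere. Means for 10 liver markers were 4.36 and 4.53 in Aifm1-WT 1 and Aifm1-WT 2, and -1.31 to 1.77 in the other libraries. The part of such tissue in the comparisons with Aifm1-WT was not tested. In bulk tissue, fewer cells of a type and less RNA per cell cannot be told apart.

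The 2 Hq libraries with replicate number 2 stood apart from the rest in these genes, and the counts and medians for Hq mice are therefore given with and without them. The summed level of the 78 members was 2178 CPM in Hq-WT 2 and 2605 CPM in Hq-mut 2, against 1514 to 1684 CPM in the other 14 libraries. The group means were 1595 ± 66.4 CPM (SD, n = 4) in Aifm1-WT, 1561 ± 26.8 in Aifm1-KI, 1734 ± 300.9 in Hq-WT and 1860.2 ± 499.9 in Hq-mut. Without library 2 the Hq means were 1586 ± 65.4 CPM in Hq-WT and 1612 ± 68.9 in Hq-mut (SD, n = 3), within an SD of each other. Hq-mut 2 was the highest of the 16 libraries for 69 members and Hq-WT 2 for 5, and the same 2 libraries were the top 2 for 68 members. Among the 76 members with enough counts to be tested in both lines, the same was true of 89.5%, against 18.5% of all genes tested in the Hq line. The 4 members with another highest library were Mrpl3, Mrpl23, Mrpl53 and Mrps36. The plot of subunit means by library shows the size of the departure.

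**Figure D1:**
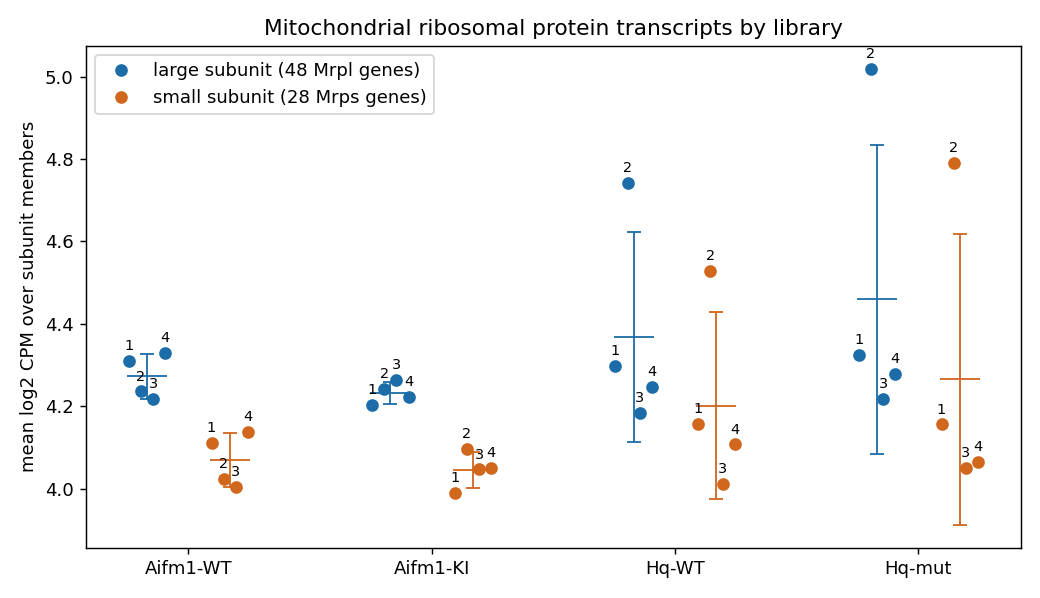
Mean log2 CPM over the 48 Mrpl genes (blue) and the 28 Mrps genes (orange) that passed the filter, for each of the 16 libraries; numbers are replicate numbers, the long bars are group means and the error bars are SDs (n = 4). Hq-WT 2 and Hq-mut 2 lie above the other 14 libraries in both subunits, and the other points lie between 3.99 and 4.33.

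The level of the members differed widely between genes. To compare them, the mean CPM over all 16 libraries, mutants and pair 2 included, was divided by the length of the principal transcript in kilobases (CPM per kb). The median was 15.4 CPM per kb for the large subunit and 11.7 for the small subunit. The highest large subunit genes were Mrpl20, a core protein that binds the large ribosomal RNA early in assembly, at 45.8 CPM per kb, Mrpl41 at 36.4 and Mrpl33 at 33.6. Among genes named for the small subunit, Mrps18a was highest at 39.7 CPM per kb, followed by Mrps12, a protein of the decoding centre, at 29.6 and Mrps15, which binds the small ribosomal RNA, at 25.0.

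Mrps18a belongs with the former group by structure. The bacterial protein S18 has 3 mammalian relatives, of which Mrps18b and Mrps18c sit in the small subunit and Mrps18a in the large one. In the same CPM per kb, Mrps18c was at 11.7 and Mrps18b at 4.72, so the 3 paralogs spanned much of the range of the whole family. Mrps30, a second gene with a small subunit symbol whose protein is found in the large subunit, was at 6.09. Mrps36, now known as a component that ties together the oxoglutarate dehydrogenase complex, was at 0.56.

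Several of the members with the lowest CPM per kb share sequence with other genes. Mrpl53 was at 0.047 CPM per kb, from 12 reads in all 16 libraries together, and every 51-base window of its transcript (the read length) also occurs in a transcript of Gm42688, an overlapping gene that was counted at 1.59 CPM. Mrpl23, which lines the peptide exit tunnel, was at 3.30 CPM per kb and shares 66.6% of its windows with the pseudogene Mrpl23-ps1, whose 7.20 CPM exceeded the 2.43 CPM of Mrpl23 itself. Mrps36, at 0.39 CPM, shares 35.6% of its windows with other genes, among them Mrps36-ps1 at 0.78 CPM. Mrps25 (73.9% of windows, shared with Nr2c2 on the opposite strand), Mrps18b (63.7%) and Mrps34 (52.3%) were at 4.48, 4.72 and 6.22 CPM per kb. The low value of Mrps25 came from 27.2 CPM over a principal transcript of 6073 bases.

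Over all members, the 5 with at least 50% of windows in other genes had a median of 4.48 CPM per kb, and the 73 others 14.7. The 29 with 0 shared windows had a median of 16.7. Whether reads lost to shared sequence lower these counts was not tested, and the strand setting of the counting is not given in the sources used here, so the counts of these 5 genes and of Mrps36 are uncertain. Low values per kb also occurred without shared sequence. Mrpl17 was at 3.11 CPM per kb with no window in another gene. Its principal transcript is the longest of the family at 7300 bases, and its 22.7 CPM was above the median of 19.6 CPM over the tested members.

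**Figure D2:**
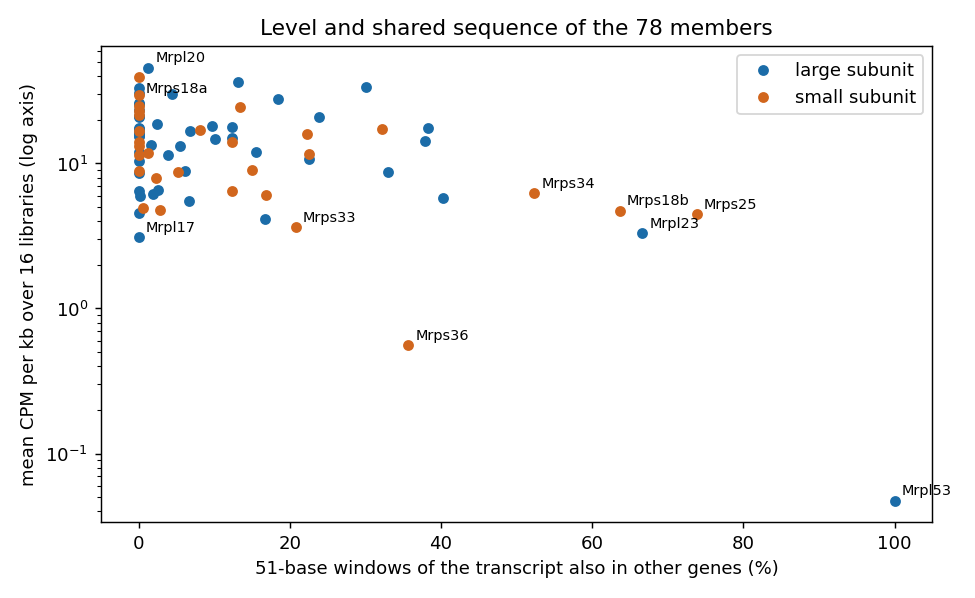
Mean CPM per kb over 16 libraries (log axis) against the percentage of 51-base windows of the principal transcript that also occur in transcripts of other genes, for the 78 members (blue, large subunit; orange, small subunit). The 5 members past 50% lie at 6.22 CPM per kb or lower, whereas members with 0% reach from 3.11 (Mrpl17) to 39.7 (Mrps18a).

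The promoters of the members share features that the symbol rule did not use. RefSeq promoter windows of 300 bases (build GRCm38.p6, 250 before and 50 after the start) were matched for 69 of the 78 genes, giving 75 windows. On either strand, CCGGAAG, the core read by ETS family factors such as GABPA, was present in 34.7% of member windows and in 8.86% of all 32851 windows. AAGATGGCG, a YY1 motif, was in 10.7% against 1.40%, GGGCGG, an SP family motif, in 52.0% against 35.7%, and the consensus NRF1 motif, which reads the same on both strands, in 4.0% against 0.97%. The 3 members with the last motif were Mrpl9, Mrpl32 and Mrpl39. These are matches of letters and not measured binding.

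The stretches below lie just before the start of 3 members with a small subunit symbol. They were picked because they hold the ETS core, found for 26 of the 69 genes, so they do not show where it falls in other members. The p of these members was among the 5 smallest of the Mrps genes with values above 0 in the Hq comparison, and none passed the test. Of the same 5, Mrps18c also has the core in its promoter window and is not printed. Each stretch is printed 5′ to 3′ on the strand of the gene, with the match to CCGGAAG or its reverse complement in capitals, and holds no annotated exon. The first base of the match is 26, 11 and 48 bases before the RefSeq start of Mrps18a, Mrps22 and Mrps27. In Mrps18a (chr17:46110886-46110985, + strand) and Mrps22 (chr9:98601680-98601779, - strand) the core is on the strand of the gene, and in Mrps27 (chr13:99344706-99344785, + strand) on the other.
Mrps18a: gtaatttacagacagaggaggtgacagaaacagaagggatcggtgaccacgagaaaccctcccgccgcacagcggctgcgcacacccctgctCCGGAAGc
Mrps22: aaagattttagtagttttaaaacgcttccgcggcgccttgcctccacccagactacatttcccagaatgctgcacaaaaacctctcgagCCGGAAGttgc
Mrps27: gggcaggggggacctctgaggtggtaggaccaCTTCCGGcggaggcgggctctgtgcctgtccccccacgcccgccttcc

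Many members also start back to back with another gene. A protein-coding neighbour on the opposite strand whose start lay upstream, at most 500 bases away, was found for 17 of 78 members (21.8%). The share was 1353 of 22028 protein-coding genes (6.14%) in the annotation. Pairs whose starts overlap, such as Mrps11 and Mrpl46, were not counted. Mrps12 and Sars2, the mitochondrial seryl-tRNA synthetase, start 172 bases apart, Mrpl32 and the proteasome gene Psma2 75 bases apart, Mrps27 and Ptcd2 81 bases apart, and Mrps18c and the helicase Helq 29 bases apart. Members and partners differed in their level in Hq-mut 2 relative to the rest. The level there over the mean of the other 14 libraries was 2.11 for Mrps18c and 0.78 for Helq, and 2.02 for Mrps12 and 1.19 for Sars2. It was 1.54 for Mrpl32 and 1.89 for Psma2, and 1.43 for Mrps27 and 1.67 for Ptcd2. Among the 17 pairs, only Mrpl32 and Mrps27 had a lower ratio than their partner.

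The first comparison asks whether the arginine deletion changes these transcripts. In Aifm1-KI cortex 0 of the 76 members tested passed an adjusted p of 0.05 (edgeR quasi-likelihood test, as for all adjusted p-values here unless stated), and 0.0% of the 18383 genes tested did. DESeq2 and limma-voom also called 0 members, while DESeq2 called 82 genes (0.446%) and limma-voom 0.0%. The log2 fold changes were above 0 for 32 members and below 0 for 44, with a median of -0.01, against 0.0055 for all genes tested. The median was -0.02 for the 48 large and 0.00054 for the 28 small subunit genes. At an unadjusted p under 0.05 there were 5 members (6.58%), against 11.4% of all genes.

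Mrpl28, a large subunit protein with a bacterial relative, had the smallest p in this comparison. It was at 34.0, 31.2, 29.4 and 31.3 CPM in the 4 Aifm1-WT libraries and at 28.3, 25.9, 28.7 and 27.8 CPM in the 4 Aifm1-KI libraries. The groups did not overlap, yet the log2 fold change of -0.17 (SE 0.06) had an edgeR adjusted p of 0.390. Mrpl45, which holds the ribosome at the inner membrane, was at 26.2 to 28.5 CPM in Aifm1-WT and 23.4 to 25.5 in Aifm1-KI, again without overlap (log2 fold change -0.14, SE 0.06). Mrpl11, at the base of the stalk that recruits elongation factors, and Mrpl24, beside the exit tunnel, were the other 2 members whose groups did not overlap. All 4 were lower in Aifm1-KI, which is 5.26% of the members against 2.83% of all genes, and 0 members were higher without overlap, against 2.03%.

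Mrpl34 had the most negative fold change in this comparison (log2 -0.28, SE 0.12), with 10.8 to 13.97 CPM in Aifm1-WT and 9.42 to 12.8 in Aifm1-KI, and Mrps6 the most positive. Mrps6, whose bacterial relative sits on the platform of the small subunit, was at 13.4, 11.9, 11.8 and 14.3 CPM in Aifm1-WT and at 13.6, 16.8, 13.6 and 16.5 CPM in Aifm1-KI. This is a log2 fold change of 0.25 with an SE of 0.10 (adjusted p 0.417 by edgeR). Of its exon bases, 19.9% overlap Gm49711 and Slc5a3 on the same strand, and 32.2% of its windows occur in these genes. The part of this overlap in the Mrps6 counts was not tested. The 2 high libraries of Mrps6, Aifm1-KI 2 and 4, are the ones with high striatal markers, and the other 2 lay inside the wild-type range. Without those 2 libraries the members were above 0 in 26 and below 0 in 50 cases (median -0.03), and the medians were -0.03 for the large and -0.05 for the small subunit. The part of regional tissue in these values was not tested beyond this.

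The second comparison asks the same of harlequin cortex, pairing libraries by replicate number. Here 0 of 76 members passed the threshold, against 0.0167% of 17969 genes (3 genes, Aifm1 among them at -2.89 on the log2 scale, SE 0.17, with an edgeR adjusted p of 0.00101). DESeq2, with 0.178% of genes called, and limma-voom, with 0.0167%, again called 0 members. The log2 fold changes were above 0 for 59 members (77.6%, against 51.6% of all genes) and below 0 for 17, with a median of 0.06 against 0.0060. The median was 0.06 for the large and 0.04 for the small subunit, and 2 members had an unadjusted p under 0.05 (2.63%, against 7.97%). Higher in the mutant in all 4 pairs were 11 members (14.5%, against 11.9%), 8 large and 3 small, and 0 were lower in all 4 (6.9% of all genes). Disregarding the pairs, 0 members were without overlap between the groups, against 0.857% of all genes higher and 0.723% lower.

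The excess of positive values came from 1 pair. The median log2 difference of mutant minus wild type over the 76 members was 0.02 in pair 1, 0.28 in pair 2, 0.04 in pair 3 and -0.01 in pair 4. Pair 2 had 70 members higher in the mutant and 6 lower, pair 1 had 44 and 32, pair 3 had 46 and 30, and pair 4 had 35 and 41. Without pair 2, 35 members were above 0 and 41 below, with a median of -0.0084, of 0.02 for the large and of -0.02 for the small subunit. Both subunits followed the same course across pairs, with medians of 0.30 and 0.24 in pair 2 and of -0.0085 and -0.04 in pair 4.

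**Figure D3:**
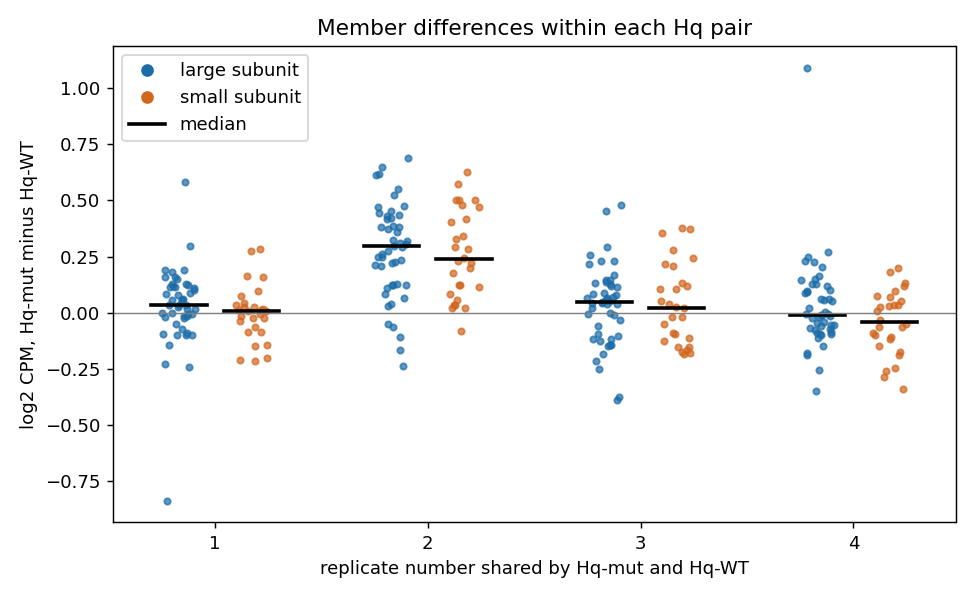
Difference in log2 CPM, Hq-mut minus Hq-WT, of each of the 76 members within the 4 pairs that share a replicate number (blue, 48 large subunit genes; orange, 28 small subunit genes; black bars, medians). The points of pair 2 are centred at 0.30 and 0.24, while the medians of the other 3 pairs lie between -0.04 and 0.05.

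Mrpl14 stood out from its subunit in the Hq line. Its protein lies at the interface with the small subunit and is bound by the assembly factor Malsu1 until the subunits may join. It was at 10.4, 25.6, 10.2 and 6.17 CPM in Hq-WT 1 to 4 and at 11.7, 34.9, 14.2 and 13.3 CPM in Hq-mut 1 to 4. The mutant was higher in 4 of 4 pairs, but the groups overlapped, because the wild type of pair 2 lay above 3 mutants. Its log2 value of 0.52 (SE 0.14) had an edgeR adjusted p of 0.528, and without pair 2 it was 0.56 (SE 0.17) with an edgeR adjusted p of 0.233. In the fit with no filter on low counts it was called, with a log2 fold change of 0.52 and an edgeR adjusted p of 0.00441, where 1.02% of 35998 genes were called. In the Aifm1 line it was at 7.32 to 9.17 CPM in wild type and 6.39 to 7.33 in knock-in (log2 fold change -0.19, SE 0.10). It also had the largest SD of log2 CPM over the 16 libraries of all members, 0.71. Of its exon bases, 11.2% overlap Tmem63b on the opposite strand, which was at 110 to 133 CPM in the 16 libraries.

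Mrpl35, a protein of the central protuberance, was the other member with an unadjusted p under 0.05. It was at 18.6, 25.7, 18.3 and 23.4 CPM in Hq-WT and at 27.9, 31.6, 20.1 and 28.2 CPM in Hq-mut. Each mutant was above its own wild type, but the groups overlapped. Its log2 value of 0.30 (SE 0.09) had an edgeR adjusted p of 0.556, and without pair 2 it was 0.32 (SE 0.10). In the knock-in the value was 0.15 (SE 0.06), with 22.7 to 24.8 CPM in wild type and 24.7 to 27.99 in Aifm1-KI.

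In the small subunit, Mrps18c had the smallest p in this comparison, at 0.18 on the log2 scale (SE 0.11) with an edgeR adjusted p of 0.709. Other members high in all 4 Hq pairs were Mrpl9, Mrpl28, Mrpl38, Mrpl43, Mrpl45, Mrpl46, Mrps18c, Mrps22 and Mrps27. Mrps22, a small subunit protein without a bacterial relative, was at 16.3, 22.4, 12.5 and 14.3 CPM in Hq-WT and 19.9, 23.8, 14.8 and 14.99 CPM in Hq-mut (log2 fold change 0.15, SE 0.09). In the opposite direction, Mrpl23 had the most negative value, a log2 fold change of -0.34 (SE 0.21), from 2.83, 2.16, 2.03 and 2.04 CPM in Hq-WT and 1.54, 2.26, 1.53 and 1.90 CPM in Hq-mut. It was lower in 3 of 4 pairs, while its pseudogene Mrpl23-ps1 had a log2 fold change of 0.14 (SE 0.14). Mrps10 was lower in 3 of 4 pairs (log2 fold change -0.13, SE 0.11), and without pair 2 it had the smallest p of the small subunit, at -0.24 on the log2 scale (SE 0.08) with an edgeR adjusted p of 0.260.

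By role, the 30 large subunit genes with bacterial relatives had 26 values above 0 and 4 below in the Hq comparison (median 0.07), and 17 and 13 without pair 2. The 18 that are specific to mitochondria had 11 and 7, and without pair 2, 9 and 9. Of the small subunit, the 16 with bacterial relatives had 13 and 3, and without pair 2, 4 and 12, and the 10 specific to mitochondria had 8 and 2, and 4 and 6. The 9 genes of the central protuberance had 7 and 2, the 7 of the exit tunnel and membrane contact 5 and 2, and the 4 of the stalk 4 and 0. Without pair 2 these became 4 and 5, 5 and 2, and 2 and 2. In the knock-in the counts above and below 0 were 3 and 6 for the protuberance, 1 and 6 for the exit tunnel and 1 and 3 for the stalk. In each role list, 0 genes passed the test in either comparison.

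The direct test of whether the mutant effects differ between the 2 lines used all 16 libraries, and so shares them with both comparisons above. It called 0 of 77 members, Mrps36 having enough counts in this fit, against 0.0105% of 19129 genes (0 members also by DESeq2, which called 0.0941% of genes, and by limma-voom, with 0.0105%). Positive values, meaning a higher mutant effect in the Hq line, were found for 56 members (72.7%, against 48.7% of all genes) and negative values for 21. The median was 0.09, of 0.09 for the large and 0.03 for the small subunit, against -0.0069 for all genes. At an unadjusted p under 0.05 there were 7 members (9.09%, against 10.4%). Each mutation is present in its own stock alone, so in this test mutation, stock, housing and handling cannot be told apart.

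Side by side, the log2 fold changes in knock-in and harlequin were -0.19 and 0.52 for Mrpl14, -0.17 and 0.19 for Mrpl28, -0.13 and 0.16 for Mrpl20, and 0.25 and -0.11 for Mrps6. Their differences were 0.71 (SE 0.18), 0.36 (SE 0.10), 0.30 (SE 0.11) and -0.36 (SE 0.14), with edgeR adjusted p-values of 0.450, 0.450, 0.450 and 0.458. Without pair 2 the members had 44 positive and 33 negative differences, with a median of 0.02.

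The wild types of the stocks were compared last, sharing their libraries with the comparisons above; stock, housing and handling cannot be told apart. Hq-WT values were higher than Aifm1-WT values for 69 members (90.8%, against 51.0% of all genes) and lower for 7, with a median of 0.14 (0.12 large, 0.16 small, 0.0046 all genes). In this comparison 0 of 76 members were called, against 0.558% of 18106 genes, and 3 had an unadjusted p under 0.05 (3.95%, against 12.7%). DESeq2, which called 2.33% of genes, and limma-voom, which called 0.602%, called 0 members as well. Without Hq-WT 2, 44 members were above 0 and 32 below, with a median of 0.01, so the excess again rested on that library. Mrps33, a small subunit protein, was the 1 member higher without overlap (1.32%, against 2.69% of all genes), and 0 were lower (4.59% of all genes). It was at 3.52, 3.35, 3.22 and 3.56 CPM in Aifm1-WT and 3.81, 6.37, 3.61 and 4.27 CPM in Hq-WT. This gave 0.40 on the log2 scale (SE 0.19) with an edgeR adjusted p of 0.401. Mrps33 shares 20.8% of its windows with Gm5776, which was also higher without overlap. Gm5776 was at 2.95 to 3.47 CPM in Aifm1-WT and 3.48 to 6.11 in Hq-WT (log2 fold change 0.44, SE 0.19). The part of shared sequence in the Mrps33 value was not tested. Mrps17 had the smallest p (log2 fold change 0.18, SE 0.08), from 54.5 to 57.7 CPM in Aifm1-WT and 55.3 to 70.8 in Hq-WT.

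Per library, the mean log2 CPM of the 48 large genes exceeded that of the 28 small ones by 0.20 ± 0.01 (SD, n = 4) in Aifm1-WT, 0.19 ± 0.03 in Aifm1-KI, 0.17 ± 0.04 in Hq-WT and 0.19 ± 0.03 in Hq-mut. The range over all 16 libraries was 0.14 to 0.23, with 0.21 in Hq-WT 2 and 0.23 in Hq-mut 2. Without library 2 the value was 0.15 ± 0.02 (SD, n = 3; 0.14 to 0.17) in Hq-WT and 0.18 ± 0.03 in Hq-mut (0.17 to 0.21). Those 3 Hq-WT libraries lay below the 4 Aifm1-WT libraries (0.19 to 0.21), whereas with Hq-WT 2 the wild types overlapped. Within each line the ranges of mutant and wild type overlapped. These values carry no test. Both subunits were high in pair 2. The large subunit genes summed to 1420.4 CPM in Hq-WT 2 and 1705 CPM in Hq-mut 2, against 970.04 to 1085 CPM in the other 14 libraries, and the small subunit genes to 758 and 899.8 CPM, against 535 to 598.5 CPM.

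The higher level in pair 2 was uneven across members. Over the 76 tested members the level in Hq-mut 2 divided by the mean of the other 14 libraries had a median of 1.70, and in Hq-WT 2 of 1.41. For Hq-mut 2 it ranged from 0.92 for Mrpl23 and 0.95 for Mrpl3 to 2.48 for Mrps24 and 3.89 for Mrpl14. Mrpl3, which reaches toward the peptidyl transferase centre, had the highest CPM of the family (mean 64.3), and its 60.9 CPM in Hq-mut 2 lay inside the 54.4 to 73.2 CPM of the other libraries. Mrps5, near the entrance of the messenger channel, was the least variable member, at 25.7 to 30.4 CPM in all 16 libraries, with an SD of 0.06 in log2 CPM. The median SD over members was 0.26 with all 16 libraries and 0.11 over the other 14.

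**Figure D4:**
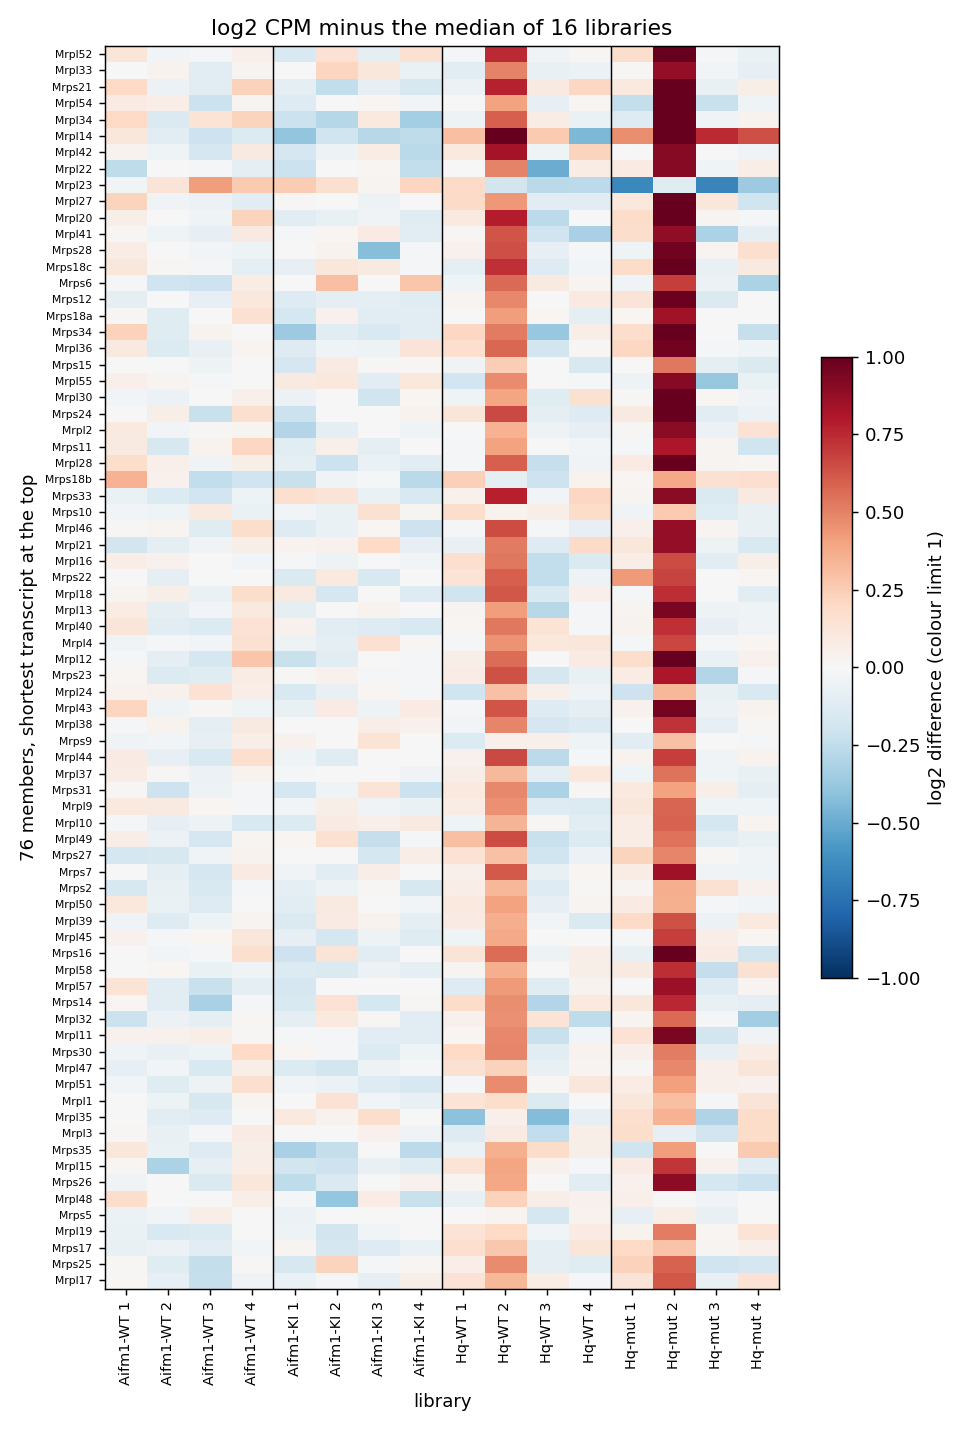
Log2 CPM of the 76 tested members in each of the 16 libraries, minus the median of the gene over the 16; red is above and blue below, with the colour limit at 1, and members are ordered from the shortest principal transcript at the top to the longest at the bottom. The columns of Hq-WT 2 and Hq-mut 2 are red for nearly all members, and pale in Hq-mut 2 for Mrpl23, Mrpl3, Mrpl48 and Mrps5.

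The size of this excess varied with transcript length and with GC content. Across the 76 members, Spearman's rank correlation between the length of the principal transcript and the ratio in Hq-mut 2 was -0.61, and -0.50 for Hq-WT 2, given as a description because the members come from the same library. With the GC content of the transcript the same rank correlation was 0.49 for Hq-mut 2 and 0.25 for Hq-WT 2. The 25 members up to 1056 bases long had a median ratio of 1.995 in Hq-mut 2 and 1.49 in Hq-WT 2, and those of 2080 bases or more 1.44 and 1.31. The same libraries were shifted by length over all genes. Genes with up to 2099 exon bases lay 0.22 above the 16-library mean in log2 CPM in Hq-mut 2 and 0.09 in Hq-WT 2, and those with 6057 or more lay 0.24 and 0.16 below it.

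**Figure D5:**
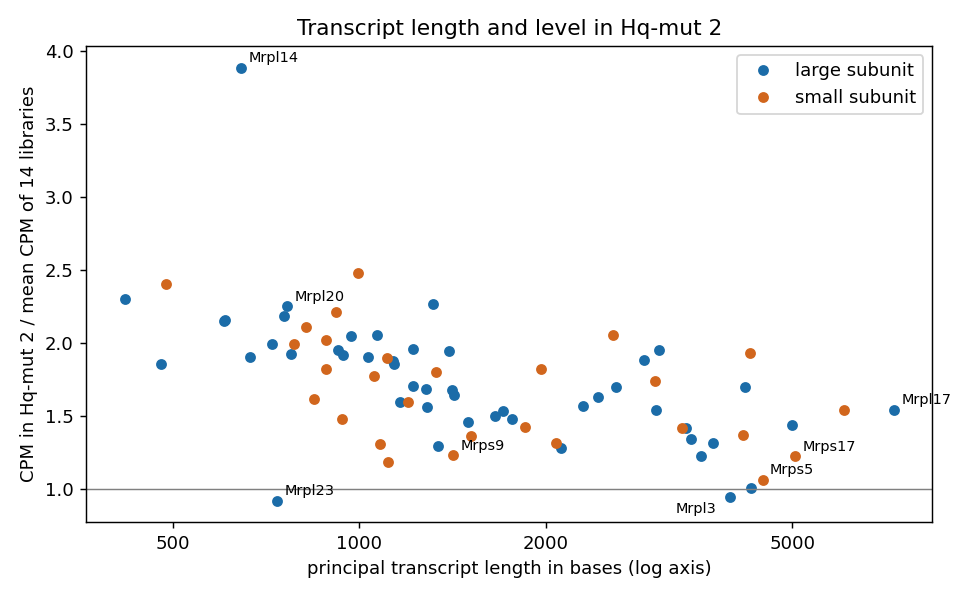
CPM in Hq-mut 2 divided by the mean CPM of the 14 libraries other than Hq-WT 2 and Hq-mut 2, against principal transcript length (log axis), for the 76 tested members (blue, large subunit; orange, small subunit; grey line, ratio 1). The ratio falls with length, from a median of 1.995 in the 25 shortest members to 1.44 in those of 2080 bases or more, with Mrpl14 at 3.89 and Mrpl23 at 0.92.

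Other gene groups were also high in these libraries. Relative to the mean of the 16 libraries, the members lay 0.67 higher in Hq-mut 2 and 0.40 higher in Hq-WT 2 in log2 CPM, cytosolic ribosomal proteins 0.85 and 0.42, and nuclear-encoded subunits of the respiratory complexes 0.89 and 0.49. The ribosomal RNAs with which the members assemble, mt-Rnr1 and mt-Rnr2, were at 7643 and 12019 CPM in Hq-WT 2 and 7306 and 11365 CPM in Hq-mut 2, against 3076 to 5449 and 4316 to 8109 CPM elsewhere. Inhibitory neuron markers had means of 6.49 and 6.55 in Hq-WT 2 and Hq-mut 2, against 5.99 to 6.35 in the other 14, with 0 of 8 at 0. Microglial markers were outside that range in Hq-mut 2 (5.29, against 4.61 to 5.05), and oligodendrocyte precursor markers in Hq-WT 2 (4.66, against 4.69 to 5.52). Astrocyte markers had means inside the range of the other 14 in both libraries. Their sums, however, were 3743 CPM in Hq-WT 2 and 4013 CPM in Hq-mut 2, against 5122 to 7328 CPM in the other 14. Sums of further lists also left the range of the other 14. In Hq-mut 2 the hippocampal (61.7 CPM, lowest other 71.2), thalamic (115.1, 125.1) and meningeal (15.37, 15.45) sums were lower. The blood sum there was higher (87.9, highest other 86.1). In Hq-WT 2 the choroid plexus (6368, 3690) and liver (5370, 2674) sums were higher, while the inhibitory neuron sum (1011, 1022) was inside. The part of length, tissue composition and RNA quality in the excess was not tested.

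No other gene of mitochondrial translation passed the test in either mutant. In the knock-in, the counts above and below 0 were 8 and 5 for the translation factors, 15 and 7 for the aminoacyl-tRNA synthetases, 17 and 7 for ribosome assembly and RNA modification, 6 and 9 for mitochondrial transcription and RNA maturation, and 1 and 4 for the 5 ribosomal proteins named outside the Mrp scheme. In Hq-mut they were 8 and 5, 14 and 8, 17 and 7, 9 and 6, and 4 and 1, and without pair 2 they were 8 and 5, 13 and 9, 16 and 8, 9 and 6, and 4 and 1. Of all genes tested, 51.6% were above 0 in the knock-in, 51.6% in Hq-mut and 50.2% in Hq-mut without pair 2. The smallest p of each comparison among them belonged to Ears2, the glutamyl-tRNA synthetase, in the knock-in (log2 fold change 0.36, SE 0.10; edgeR adjusted p 0.368) and to Gars, the glycyl-tRNA synthetase, in harlequin (0.14, SE 0.06; edgeR adjusted p 0.641).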

How the data were processed

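RNA was sequenced as 51-base single reads from 16 cortex libraries. The authors deposited 1 table of raw read counts per Ensembl gene; STAR 2.6, SAMtools and HTSeq with the mm10 build are named per the submitters' processing notes. For the counting mode and strand, nothing was given in the sources used here. Groups and replicate numbers come from the sample titles. Nothing in the labels says that libraries are separate animals, so p-values reflect only how these libraries vary, which may be technical.

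Symbols, transcripts and coordinates come from GENCODE M21 (GRCm38), which named 55480 of 55573 rows. Counts were filtered by filterByExpr, scaled by TMM and tested with the quasi-likelihood F-test of edgeR 4.0.16 (R 4.3.3) with Benjamini-Hochberg adjustment over all genes tested at 0.05; log2 CPM used a prior count of 2. The Hq comparison had the replicate number as a block, the difference test the same block in the Hq line, and the other comparisons none. The numbers pair the Hq libraries: deviations from the group means correlated at 0.41 to 0.53 within numbers and at -0.39 to 0.10 between them, and 8 of 8 libraries correlated best with their own number. In the Aifm1 line the same-number values were -0.03 to 0.10.

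Alternatives were DESeq2 1.42.0, limma-voom 3.58.1, RLE scaling, no filter, the other choice of block, each library or pair left out, Aifm1-KI 2 and 4 left out, and the structural subunits. The scripts were tested on simulated counts. The members and lists were chosen with earlier results of these data known. Members named are those with the smallest p per subunit, direction and comparison, the highest and lowest per kb, the most variable, those that failed the filter, and the paralogs and misnamed members; others named for an absent overlap or a shared direction were chosen after their values were seen. No 2 libraries were copies: chi-square per gene was at least 3.23 for any pair within groups and 3.13 for any pair between groups. The lowest value was that of Aifm1-WT 4 with Aifm1-KI 3.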

Additional observations from a re-analysis of the deposited data

Results flagged for a closer look

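A sample was singled out where its gap to the nearest other library of its group, divided by the range of the group, was above the 95% critical value of Dixon's test for 4 samples; chance does this in about 1 in 20 groups. Hq-mut 2 was such a sample for the summed CPM of the 78 members (gap over range 0.870), for the mean log2 CPM of the large subunit (0.866) and for that of the small subunit (0.858).

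Among the 45 members named, Hq-mut 2 was the outlying highest library for 13 (Mrpl14, Mrpl2, Mrpl20, Mrpl28, Mrpl33, Mrpl34, Mrpl42, Mrpl45, Mrps18a, Mrps18c, Mrps21, Mrps24 and Mrps33). Hq-WT 2 was so for 5 (Mrpl2, Mrpl33, Mrpl45, Mrps12 and Mrps18c). Aifm1-KI 1 was the outlying lowest library for 2, Mrps24 and Mrps5. The remaining cases were of 1 member each: Aifm1-WT 2 lowest for Mrps22, Aifm1-WT 3 lowest for Mrps15, Aifm1-WT 4 highest for Mrps30, Hq-WT 1 highest for Mrpl23 and Hq-WT 3 lowest for Mrps5. The share of all genes singled out by this rule is not given here, and many of the 45 were named for values in these same libraries. Of all genes tested in the Hq line, 26.2% had Hq-mut 2 as the highest of the 16 libraries.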

How the results depend on the processing

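Of 1061 combinations of a named member and an alternative setting, 1 gave a call, Mrpl14 in Hq with no filter on low counts (edgeR adjusted p 0.00441), which made the count of called members in Hq 1. The lowest adjusted p outside the unfiltered fits was 0.0966, and 24 combinations changed sign without a call in either fit. Of the counts, medians and subunit differences per comparison, 165 values under alternatives stayed within 1 SD between libraries of the main value, or within 1.5 times the main count, and 4 did not. That SD is wide for Hq (0.13) and the wild types (0.18), so it covers the Hq median of -0.0084 without pair 2 and the wild-type median of 0.01 without Hq-WT 2. These are the count just given and 3 values of the median log2 fold change of large minus small subunit genes, whose cause was not tested. In the knock-in it was -0.02 with all libraries and 0.024 without Aifm1-KI 2 and 4, and in the difference of the mutant effects it was 0.06, then -0.0094 without those 2 and 0.10 without Hq pair 3. With 1 library or pair left out, 0 members were called in any comparison. The member medians then ran from -0.03 to 0.0031 in the knock-in, from -0.0084 to 0.08 in Hq, from 0.02 to 0.12 for the difference of effects and from 0.01 to 0.18 between the wild types. The large minus small values ran from -0.04 to -0.0095, from 0.00074 to 0.05, from 0.031 to 0.10 and from -0.06 to -0.02. With no replicate block the Hq median was 0.08 and 0 members were called; with the replicate block the knock-in median was -0.01 and the wild-type median 0.12, with 0 members called, and no call changed with the pairing. Counts of the 5 members with mostly shared sequence, Mrpl53 among them, and of Mrps36 are uncertain, because the effect of shared sequence on the counting was not tested. Mrpl53, with 12 reads in all, failed the filter in every comparison. Mrps36, with 136 reads, passed it for the difference of effects alone. Both are also limited by depth.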

Other observations

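Lars2, the mitochondrial leucyl-tRNA synthetase, was the most variable gene among those of mitochondrial translation listed here. It was at 41.4 to 56.4 CPM in Aifm1-WT and at 46.5, 65.4, 63.0 and 204 CPM in Aifm1-KI. In the Hq line it was at 79.8, 122, 473 and 401 CPM in Hq-WT and 285, 746, 169 and 213 CPM in Hq-mut. All Hq-WT libraries lay above all Aifm1-WT libraries (log2 fold change 2.46, SE 0.48, edgeR adjusted p 0.0526), and the Hq-mut and Hq-WT libraries overlapped. Shared sequence was examined for the members alone, so its part in the Lars2 counts was not tested.

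Fau, which starts 59 bases from Mrpl49 on the opposite strand and encodes a cytosolic ribosomal protein, was counted at 1.70 CPM, whereas Mrpl49 was at 32.9 CPM.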
